A study of Mus musculus with 12 samples.

Results

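The genes described here encode the enzymes that make and use glutathione and the other enzymes that remove superoxide, hydrogen peroxide and lipid peroxides. They were chosen by name: protein-coding genes of the glutathione transferase classes alpha, mu, pi, omega and theta (Gsta, Gstm, Gstp, Gsto, Gstt), the microsomal glutathione transferases (Mgst), the glutathione peroxidases (Gpx), the peroxiredoxins (Prdx) and the superoxide dismutases (Sod), with Gclc, Gclm, Gss, Gsr, Txnrd1, Srxn1, Cat, Nfe2l2, Keap1, Nqo1 and Hmox1. This gave 52 genes of 54532 listed. The rule uses gene names and no measured value, but the group of genes was picked with earlier results of these data known. Another 5 genes whose symbols fitted had a different biotype and were left out.

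RNA from kidneys of C57BL/6 mice was sequenced in 12 libraries, in 4 groups of 3, and every kidney came from an injury model. After unilateral ureteral obstruction (UUO), in which the left ureter is tied off for good, β-catenin-/- mice were compared with WT mice. The other injury was unilateral ischemia/reperfusion (UIRI), made by clipping the left renal pedicle, and there CD44-/- mice were compared with WT mice. The β-catenin mice (genotype Bcat KO) carried floxed β-catenin alleles and the Ksp-Cre transgene, whose Ksp-cadherin promoter acts in tubular epithelium. By the study's staining, β-catenin was lost in distal and connecting tubules and in most proximal tubules. Its discussion names distal tubules and collecting ducts, with proximal tubules affected to some extent. The labels give no Cre or deletion strategy for the CD44-/- mice (genotype CD44 KO), no age and no time after surgery, and no uninjured kidney was analysed. The study's methods describe young adult males, and the Y-linked Ddx3y was detected in every library. Each knockout was compared only with the WT libraries of its own table, and knockout and injury differ together between the tables. The knockout groups are called β-catenin KO and CD44 KO.

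Glutathione is built from glutamate, cysteine and glycine by glutamate-cysteine ligase and then glutathione synthetase. Glutathione transferases attach it to reactive compounds, glutathione peroxidases oxidise it while they reduce peroxides, and glutathione reductase returns it to the reduced form with NADPH. Peroxiredoxins reduce peroxides with electrons from thioredoxin, superoxide dismutases turn superoxide into hydrogen peroxide, and catalase splits hydrogen peroxide in peroxisomes. Nrf2, the product of Nfe2l2, is held down by Keap1 and, when released, switches on many of these genes through antioxidant response elements. The proximal tubule is the segment of the kidney known for high levels of many of these enzymes, among them plasma glutathione peroxidase (Gpx3), which it secretes.

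Values are FPKM (fragments per kilobase, corrected for the depth of each library) and rest on 15940405 to 20737443 reads assigned to genes per library. A gene was tested when its mean over the 6 libraries of a table was at least 0.5 FPKM, and it was called at an adjusted p under 0.05 from limma on log2(FPKM + 1), two-sided, with Benjamini-Hochberg adjustment over all genes tested. Log2 fold changes are KO minus WT on that scale, with their standard error (SE), and understate the change of low genes. With groups of 3, the smallest p that an exact permutation test can give for any gene is 0.1. The study describes the numbered UUO samples as individual animals, and for UIRI the labels only number the libraries, so there the p-values measure a spread that may be technical. Libraries of a group differed by more than counting noise, with a mean chi-square per gene of 10.9 to 48.8 between replicates.

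The targeted genes were checked first. Ctnnb1 (chr9:120929216-120960507), which encodes β-catenin, was at 84.7, 71.4 and 71.7 FPKM in β-catenin KO libraries and at 91.2, 86.7 and 98.5 FPKM in WT libraries after UUO. Every KO library lay below every WT library, but the difference was not called (log2 fold change −0.28, adjusted p = 0.189, limma). Cd44 (chr2:102811141-102901665) was at 19.0, 12 and 13.9 FPKM in the libraries labelled CD44 KO and at 19.9, 16.3 and 17.8 FPKM in WT libraries after UIRI. The library labelled CD44 KO replicate 1 therefore lay within the WT range (log2 fold change −0.27, adjusted p = 0.339, limma). In the other table, Cd44 was called lower in β-catenin KO than in WT libraries, at 21.5, 23.2 and 24.0 FPKM against 33.3, 40.6 and 38.4 FPKM (log2 fold change −0.68, adjusted p = 0.0181, limma). A gene's FPKM sums all of its exons, so these values do not show whether a deleted exon is missing, and every statement on CD44 KO refers to the libraries with that label. The Y-linked Eif2s3y was at 3.54 FPKM in CD44 KO replicate 2, beside 15.8 to 19.3 FPKM in the other UIRI libraries. It was not called (adjusted p = 0.315, limma), and the cause was not tested. Xist was at most 0.022 FPKM and Nnt, a gene of NADPH supply, at most 0.179 FPKM in any library.

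After UUO, antioxidant genes lay mostly higher in β-catenin KO than in WT kidneys. Of the 52 genes, 44 were tested, 12 were called higher, 1 was called lower and 31 were not called. The 12 were Gsta3, Gstt2, Cat, Mgst3, Nqo1, Gsta1, Gstm1, Gss, Sod1, Prdx5, Sod3 and Gpx4, and the 1 was Gpx8. Higher calls made up 27.3% of the members tested, beside 6.21% of all 16166 genes tested in this table, and lower calls made up 4.36% of all genes. The 3 KO libraries lay all above the 3 WT libraries in 24 members (54.5% of those tested, beside 19.6% of all genes) and all below in 1 (beside 15.9%). The log2 fold change was positive in 39 of 44 members (88.6%, beside 51.1% of all genes) and its median over them was 0.58, beside 0.01 over all genes tested. Rescaling FPKM so that all libraries have the same total (TPM) moved the median of all genes to −0.19 and that of the members to 0.39. Under TPM, Gpx4 and Sod3 were no longer called higher, and Gpx3 was. Of the 12, Gsta1 passed the filter on low values through the KO group alone, and leaving it out gives 11. The other 8 members were not tested.

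After UIRI, 45 of the 52 genes were tested in the libraries labelled CD44 KO and their WT controls. In them 10 were called higher (Sod3, Cat, Gsta2, Txnrd1, Prdx6, Nqo1, Gclm, Gpx3, Gstt2 and Gsr), 2 were called lower (Gpx8 and Gpx7) and 33 were not called. Higher calls made up 22.2% of the members tested, beside 4.02% of 16113 genes tested, and lower calls made up 2.19% of all genes. The KO libraries lay all above the WT libraries in 20 members (44.4% of those tested, beside 19.1% of all genes) and all below in 4 (beside 14.5%). The log2 fold change was positive in 35 of 45 (77.8%, beside 50.2% of all genes), with a median of 0.41 beside 0.00081 over all genes tested. Rescaling to TPM moved these medians to 0.28 and −0.12, and gave 4 members called higher and 2 lower. Those 4 were Sod3, Cat, Gsta2 and Gpx3, while Txnrd1, Prdx6, Nqo1, Gclm, Gstt2 and Gsr lost the call. The other 7 members were not tested in either table, and they were Gpx2, Gpx5, Gstm3, Gsto2, Gstt4, Mgst2 and Prdx6b.

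**Figure D1:**
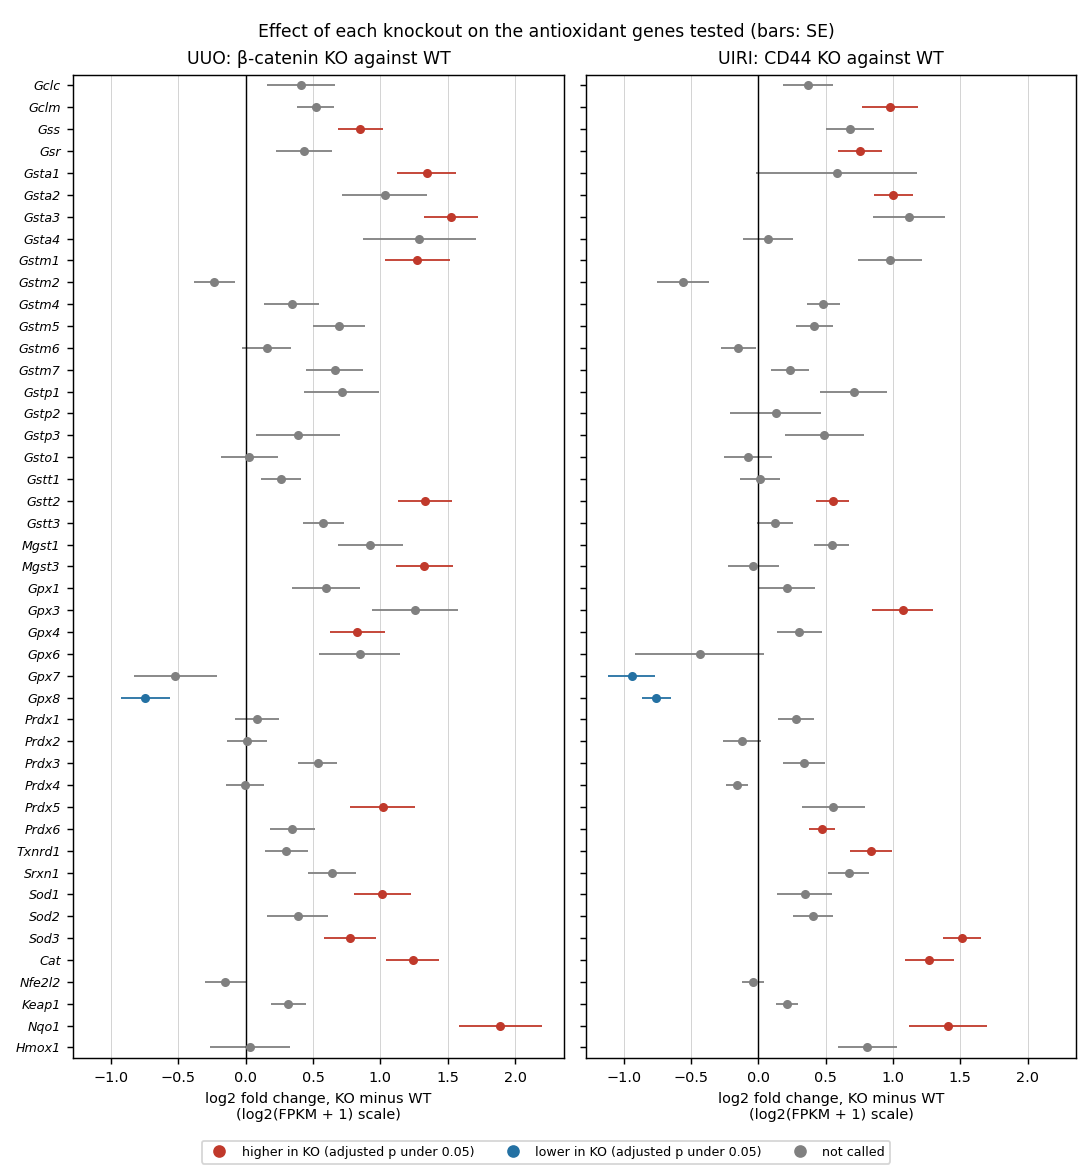
Log2 fold change (KO minus WT, log2(FPKM + 1) scale, x axis, both panels on the same scale) of each antioxidant gene tested (y axis, in order of role) for β-catenin KO after UUO (left) and CD44 KO after UIRI (right), with bars of 1 SE. Red points were called higher, blue points lower and grey points were not called. Most points lie right of 0 in both panels, and Gpx7 and Gpx8 lie left of 0 in both.

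The calls depended on single libraries. In UUO, 6, 4 and 23 members were called higher without β-catenin KO replicate 1, 2 or 3, and 5, 1 and 6 without WT replicate 1, 2 or 3. Gpx8 stayed called lower only without β-catenin KO replicate 3 or WT replicate 3. Gsta3 was the only member of the 13 called with each of the 6 libraries left out in turn (highest adjusted p = 0.0499, limma). In UIRI, 16 members were called higher and 2 lower without CD44 KO replicate 2, while limma called 0 without CD44 KO replicate 1, CD44 KO replicate 3 or any of the WT replicates. With all 6 libraries, 26 members were higher and 1 lower in UUO at an unadjusted p under 0.05 (beside 29.9% of all genes in either direction), and 22 were higher and 3 lower in UIRI (beside 27.1%). A fit of voom and limma to reads recovered from FPKM called 20 members higher and 1 lower in UUO (beside 7.62% and 6.33% of all genes), and 16 higher and 2 lower in UIRI (beside 5.84% and 4.41%). Without the filter on low values, limma called 4 higher in UUO and 1 in UIRI. With a library left out, the median log2 fold change of the members lay between 0.49 and 0.67 in UUO and between 0.28 and 0.50 in UIRI, and under the other alternatives between 0.39 and 0.62 and between 0.28 and 0.43. β-catenin KO replicate 3 had the lowest value of the 3 KO libraries in 35 of 44 members and in all 12 called higher, and CD44 KO replicate 2 had the lowest in 26 of 45 and in 7 of the 10 called higher.

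Marker sums of several cell types differed between the groups in the same libraries. Of 15 proximal tubule markers, such as Slc34a1 and Lrp2, 10 were called higher in β-catenin KO libraries, and their summed level was 1497 to 2712 FPKM in KO and 669 to 745 FPKM in WT libraries. In UIRI, 6 of the 15 were called higher, with sums of 1048 to 2445 FPKM in KO and 640.2 to 758 FPKM in WT libraries. Of 12 macrophage and monocyte markers, 10 were called lower after UUO (sums of 610.3 to 706 FPKM against 1171 to 1436 FPKM) and 7 after UIRI (818 to 1432 FPKM against 2126 to 2194 FPKM). Of 9 fibroblast and myofibroblast markers, 4 were called lower after UUO (73.4 to 227 FPKM against 224 to 278 FPKM) and 2 after UIRI (132 to 299.7 FPKM against 257 to 430.3 FPKM). After UUO the sums were also higher in every KO library for 7 thick ascending limb markers (480.5 to 883 FPKM against 299.7 to 443 FPKM, 1 called higher) and 10 distal convoluted tubule and collecting duct markers (321 to 639 FPKM against 211 to 239 FPKM, 1 of 8 tested called higher). Of the 8 distal and collecting duct markers tested, 5 had positive and 3 negative log2 fold changes, with a median of 0.03. For 7 endothelial markers the sums were lower in every KO library (125 to 139.9 FPKM against 155 to 171 FPKM, 1 called lower). The same held for 6 injured tubule markers (11382 to 18475 FPKM against 19538 to 22202 FPKM, 1 called lower), of which 2 had positive and 4 negative log2 fold changes. Sums of 4 adipocyte markers were higher in every KO library (11.5 to 27.9 FPKM against 9.74 to 9.97 FPKM, 0 of 2 tested called). WT replicate 3 stood apart in its sum of 5 neutrophil markers, at 567 FPKM beside 14.9 to 48.1 FPKM in the other libraries. After UIRI the thick ascending limb, distal, endothelial and injured tubule sums overlapped between groups, and neutrophil sums were 15.8 to 18.1 FPKM in KO and 25.4 to 61.4 FPKM in WT libraries. Sums of 8 lymphocyte markers were 3.88 to 7.72 FPKM in KO and 14.4 to 23.4 FPKM in WT libraries (2 of 5 tested called lower). Those of 8 hepatocyte markers were 91.4 to 151 FPKM in KO and 45.5 to 74.3 FPKM in WT libraries (0 of 4 tested called). None of these lists had a marker at 0 in all libraries of a table. Their part in the results below was not tested, and in whole kidneys fewer cells of a type and less RNA per cell cannot be told apart.

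**Figure D2:**
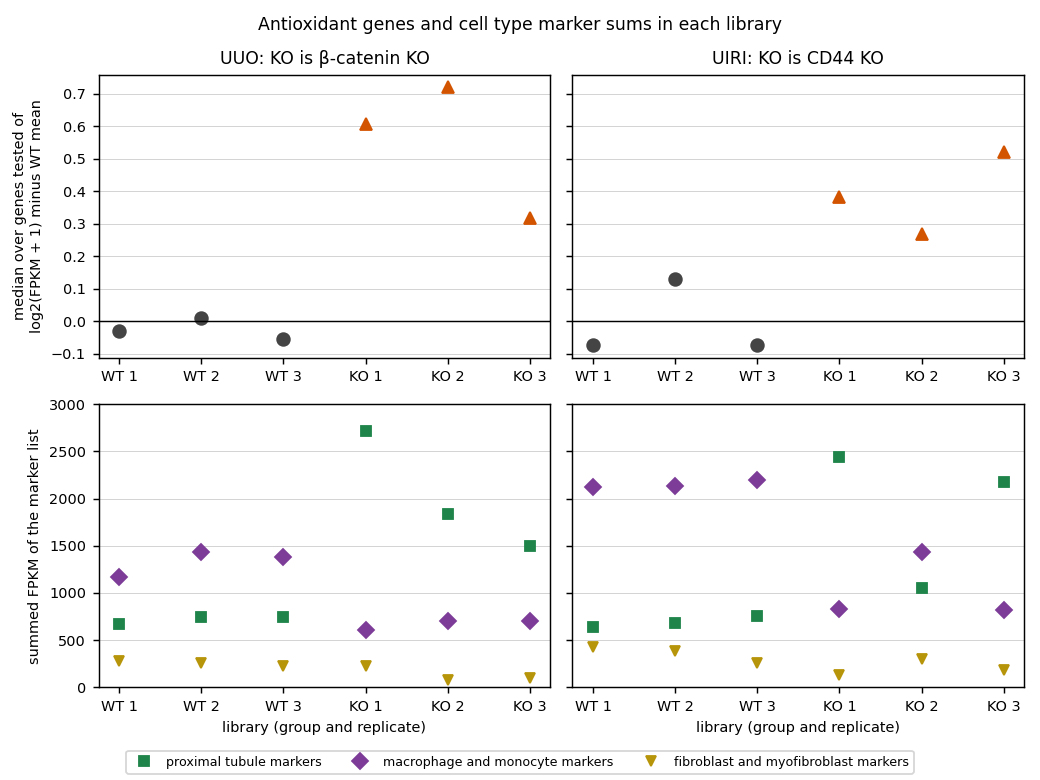
Top: median over the antioxidant genes tested of log2(FPKM + 1) minus the WT mean of each gene (y axis), in each library (x axis), after UUO (left) and UIRI (right). Bottom: summed FPKM (y axis) of the proximal tubule, macrophage and monocyte, and fibroblast and myofibroblast marker lists in the same libraries. β-catenin KO replicate 3 and CD44 KO replicate 2 have both the lowest median and the lowest proximal tubule sum of their KO group.

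The 4 enzymes of glutathione synthesis and recycling had positive log2 fold changes in both comparisons. In UUO 1 of 4 was called higher and in UIRI 2 of 4. Gss (chr2:155563181-155592810), glutathione synthetase, was at 44.1, 52.1 and 35.5 FPKM in β-catenin KO libraries and at 23.2, 26.8 and 21.1 FPKM in WT libraries. All KO libraries were above all WT libraries, and Gss was called higher (log2 fold change 0.85, SE 0.17, adjusted p = 0.0243, limma). In UIRI its values did not overlap either, at 60.5, 42.8 and 67.6 FPKM against 34.3, 37.8 and 31.6 FPKM, but it was not called (log2 fold change 0.68, adjusted p = 0.0662, limma). Of its exonic bases, 15.4% also lie in exons of genes on the opposite strand, and the labels do not say that the library kit kept strand.

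Gclm (chr3:122245557-122270732), the modifier subunit of glutamate-cysteine ligase, was called higher in UIRI. It was at 48.9, 41.1 and 71.5 FPKM in CD44 KO libraries and at 29.2, 26.6 and 22.9 FPKM in WT libraries (log2 fold change 0.98, SE 0.21, adjusted p = 0.0454, limma). CD44 KO replicate 3 was the highest, and the groups did not overlap. In UUO the KO libraries (48.9, 49.4 and 41.1 FPKM) were also all above the WT libraries (27.8, 34.8 and 33.8 FPKM), and the gene just missed the threshold (adjusted p = 0.0533, limma). Gclc (chr9:77754535-77794485), the catalytic subunit, overlapped between groups in both comparisons, with log2 fold changes of 0.41 (SE 0.25) in UUO and 0.37 (SE 0.19) in UIRI, neither called. It had the highest mean of the 4 in UUO.

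Gsr (chr8:33652523-33698163), glutathione reductase, was at 58.7, 75.4 and 87.5 FPKM in CD44 KO libraries and at 45.9, 46.0 and 37.2 FPKM in WT libraries after UIRI. The groups did not overlap and Gsr was called higher (log2 fold change 0.75, SE 0.17, adjusted p = 0.049, limma), although leaving out any of the 6 libraries ended the call. After UUO the groups overlapped, since WT replicate 3 at 53.4 FPKM was above β-catenin KO replicate 3 at 46.8 FPKM (log2 fold change 0.43, adjusted p = 0.208, limma).

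The glutathione transferases, cytosolic and microsomal, numbered 23 genes. The alpha class held the member with the smallest p in UUO. Gsta3 (chr1:21240589-21265661) was at 21.9, 20.3 and 12.6 FPKM in β-catenin KO libraries and at 5.92, 5.54 and 5.11 FPKM in WT libraries. The lowest KO value was more than the highest WT value, and the fold change of the means was 3.30 (log2 fold change 1.53, SE 0.20, adjusted p = 0.0111, limma). In UIRI the KO libraries were at 20.4, 12.9 and 28.3 FPKM and the WT libraries at 7.20, 10.3 and 8.20 FPKM. The groups did not overlap there, but Gsta3 was not called (log2 fold change 1.12, SE 0.27, adjusted p = 0.0584, limma).

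Gsta2 (chr9:78331018-78355788) was the most abundant alpha transferase in both tables and carried 86.3% of the class's summed FPKM in β-catenin KO and 85.5% in CD44 KO libraries. It was called higher in UIRI, at 308, 261 and 362 FPKM against 140.0, 159.5 and 159.9 FPKM in WT libraries (log2 fold change 1.00, SE 0.15, adjusted p = 0.0267, limma). In UUO β-catenin KO replicate 3 at 179.6 FPKM was below WT replicate 2 at 186 FPKM, and Gsta2 was not called (log2 fold change 1.03, SE 0.31, adjusted p = 0.0768, limma). The log2 fold changes were close to each other, and the SE was larger in UUO.

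Gsta1 (chr9:78230656-78242684) was called higher in UUO at a low level, at 2.31, 2.63 and 1.24 FPKM in KO libraries and 0.0539, 0.391 and 0.123 FPKM in WT libraries (log2 fold change 1.34, adjusted p = 0.0166, limma). These WT values correspond to 1, 7 and 2 reads. In UIRI it ranged from 1.15 to 11.5 FPKM among CD44 KO libraries and was not called. The coding sequences of Gsta1 and Gsta2 were 98% identical over 666 aligned bases, so reads of the far more abundant Gsta2 could be assigned to Gsta1, and its values are uncertain. Gsta4, a transferase of lipid aldehydes, had log2 fold changes of 1.29 (SE 0.42) in UUO, where β-catenin KO replicate 1 at 46.6 FPKM stood above the others, and 0.07 (SE 0.18) in UIRI. It was called in neither.

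The 7 mu class genes lie side by side on chromosome 3 between 107895821 and 108044894, and their levels differed widely. Gstm1 (chr3:108012255-108017973) carried 72.0% of the class's summed FPKM in β-catenin KO and 60.5% in WT libraries after UUO. It was at 625, 449 and 321 FPKM in KO libraries and at 176, 189 and 191 FPKM in WT libraries, a 2.51-fold change of the means that was called (log2 fold change 1.27, SE 0.24, adjusted p = 0.0234, limma). In UIRI it was at 323, 234 and 427 FPKM against 159.6, 193 and 136 FPKM. The groups again did not overlap, but Gstm1 was not called there (log2 fold change 0.98, SE 0.24, adjusted p = 0.0598, limma).

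The neighbours of Gstm1 differed from it in value. Gstm2, next to it, had negative log2 fold changes of −0.23 in UUO and −0.56 in UIRI, and in UIRI all 3 KO libraries (27.7, 33.7 and 26.5 FPKM) were below the WT libraries (40.9, 57.4 and 34.6 FPKM). It was called in neither (adjusted p = 0.34 and 0.123, limma). Gstm5 was higher in all KO libraries in both tables without being called, with log2 fold changes of 0.69 and 0.42. Gstm4, Gstm6 and Gstm7 were at most 12.3 FPKM and were not called, and Gstm3 was at most 0.387 FPKM and was not tested. Coding identity between pairs of mu genes was between 70.0% and 89.4%.

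In the theta class, whose 4 genes lie on chromosome 10 between 75774115 and 75837424, Gstt2 (chr10:75831114-75837424) was called in both comparisons. After UUO it was at 42.4, 56.4 and 32.6 FPKM in KO libraries and at 18.4, 16.0 and 15 FPKM in WT libraries, a 2.66-fold change (log2 fold change 1.33, SE 0.20, adjusted p = 0.0142, limma). After UIRI it was at 37.3, 34.9 and 41.5 FPKM against 22.6, 29.4 and 24.7 FPKM, a 1.48-fold change (log2 fold change 0.55, SE 0.12, adjusted p = 0.049, limma). The groups did not overlap in either table. Gstt1, the most abundant theta gene with 73.2% of the class in WT libraries after UUO, was not called, with log2 fold changes of 0.26 (SE 0.15) in UUO and 0.01 (SE 0.15) in UIRI, where the sign turned under TPM, under voom and without some libraries. Gstt3 lay between them in UUO (0.57, adjusted p = 0.0542, limma).

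Among the microsomal transferases, 1 of 2 tested was called, in UUO. Mgst3 (chr1:167371966-167393841), a membrane enzyme with transferase and peroxidase activity, was at 111, 129.7 and 80.6 FPKM in β-catenin KO libraries and at 50.3, 34.6 and 40.6 FPKM in WT libraries (log2 fold change 1.33, SE 0.21, adjusted p = 0.0156, limma). After UIRI the groups overlapped, at 122, 94.8 and 106 FPKM against 94.0, 145 and 97.8 FPKM (log2 fold change −0.04, SE 0.19, adjusted p = 0.923, limma), and the sign turned without CD44 KO replicate 2 or WT replicate 2. The test of the difference between these effects gave 1.36 (SE 0.30) on the log2 scale and an adjusted p of 0.146 (limma), so it was not called. Mgst1 was higher in all KO libraries of both tables without a call (log2 fold change 0.93, adjusted p = 0.0523 in UUO, and 0.55, adjusted p = 0.0587 in UIRI, limma). Mgst2 was at most 0.491 FPKM and was not tested.

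The pi and omega classes had no called member. Gstp1 (chr19:4035407-4037921), with 96.0% to 97.1% of the class's summed FPKM in each group, had a log2 fold change of 0.71 in both comparisons (SE 0.28 in UUO and 0.25 in UIRI). In UUO β-catenin KO replicate 3 at 81.6 FPKM lay within the WT range of 76.2 to 83.5 FPKM, while in UIRI all KO libraries (180.3, 186 and 251 FPKM) were above the WT libraries (119, 175 and 92.3 FPKM). Gstp2, 98.1% identical to Gstp1 in its coding sequence, was at most 2.19 FPKM, so its values are uncertain, and Gstp3 was at most 7.01 FPKM. Gsto1 had log2 fold changes of 0.03 in UUO and −0.08 in UIRI, and these signs turned under TPM in UUO and with single libraries left out in both tables.

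Of the 6 glutathione peroxidases tested, 1 was called higher in each comparison, 1 lower in UUO and 2 lower in UIRI. The active site of the classical members is a selenocysteine, which is read from a TGA codon within the coding sequence, while other members have a cysteine codon at that place. The stretches of coding sequence around this codon are shown because the members called higher have TGA and those called lower have a cysteine codon. The codon is in capitals, with 12 bases on either side, read 5′ to 3′ on the coding strand from GENCODE transcripts on GRCm38, and each stretch lies within 1 exon. The codon in each gene is the one that aligned with the TGA of Gpx1 when the coding sequences were translated.
Gpx1: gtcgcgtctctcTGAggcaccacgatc
Gpx2: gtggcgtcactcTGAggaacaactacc
Gpx3: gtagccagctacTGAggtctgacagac
Gpx4: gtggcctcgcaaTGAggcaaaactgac
Gpx5: gtggctacctatTGCggtctgacaatc
Gpx6: gtggcatccttcTGTggcctgacagct
Gpx7: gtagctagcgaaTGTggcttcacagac
Gpx8: gtggctagtgacTGCcgcttcacagac

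The capitals are codon 47 of Gpx1 at chr9:108339451-108339453 (exon 1, plus strand), codon 73 of Gpx3 at chr11:54907256-54907258 (exon 2, plus strand) and codon 73 of Gpx4 at chr10:80054737-80054739 (exon 3, plus strand). In Gpx2, on the minus strand, they are codon 40 at chr12:76795256-76795258 (exon 1). In Gpx5 they are codon 73 at chr13:21291336-21291338 (exon 2, minus strand) and in Gpx6 codon 73 at chr13:21313777-21313779 (exon 2, plus strand). In Gpx7 they are codon 56 at chr4:108403430-108403432 and in Gpx8 codon 79 at chr13:113045661-113045663, both in exon 2 on the minus strand. Among the 52 genes, an in-frame TGA was found only in Gpx1, Gpx2, Gpx3, Gpx4 and Txnrd1 (1 transcript per gene was read).

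The genes with TGA that were tested, Gpx1, Gpx3 and Gpx4, had positive log2 fold changes in both tables. Gpx3 (chr11:54902453-54910377), the secreted peroxidase, was the most abundant of all members by FPKM. It was at 11475, 14181 and 8946 FPKM in β-catenin KO libraries and at 4196, 4248 and 5997 FPKM in WT libraries after UUO, a 2.40-fold difference of the means. The lowest KO value was above the highest WT value, but Gpx3 was not called (log2 fold change 1.26, SE 0.32, adjusted p = 0.0505, limma). This depended on the fit, with an adjusted p of 0.00976 by voom and limma and 0.776 by limma without the filter. After UIRI it was at 9552, 7383 and 8300.2 FPKM in CD44 KO libraries and at 3890.0, 3586 and 4493 FPKM in WT libraries, and was called higher (log2 fold change 1.07, SE 0.23, adjusted p = 0.0457, limma). That call was lost with a pseudocount of 0.01, without the filter and with the replicate block. Over all alternatives its adjusted p in UIRI ran from 0.0121 to 0.665 (limma, with or without voom).

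Gpx3 made up 82.1% of the summed FPKM of the glutathione peroxidases in β-catenin KO and 74.6% in WT libraries, and 82.0% in CD44 KO and 71.6% in their WT libraries. Gpx4 (chr10:80047166-80056439), which reduces lipid hydroperoxides in membranes, was called higher in UUO, at 416, 450.5 and 282 FPKM against 224, 222 and 188 FPKM (log2 fold change 0.83, SE 0.21, adjusted p = 0.048, limma). In UIRI its groups overlapped (log2 fold change 0.31, adjusted p = 0.292, limma). Gpx1, the cytosolic enzyme, was at 1656 to 2598 FPKM in β-catenin KO libraries and 1184 to 1644 FPKM in WT libraries, without overlap, and was not called in UUO (log2 fold change 0.59, adjusted p = 0.163, limma) or in UIRI (0.21, adjusted p = 0.542, limma). Gpx2 was at most 0.180 FPKM and was not tested.

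Gpx8 and Gpx7, peroxidases of the endoplasmic reticulum that have a cysteine codon, went the other way. Gpx8 (chr13:113042753-113046410) was at 15.9, 13.3 and 18.4 FPKM in β-catenin KO libraries and at 29.2, 31.8 and 21.2 FPKM in WT libraries (log2 fold change −0.75, SE 0.18, adjusted p = 0.046, limma). After UIRI it was at 19.7, 25.2 and 21.1 FPKM against 36.9, 39.1 and 37.1 FPKM (log2 fold change −0.76, SE 0.11, adjusted p = 0.0267, limma). Every KO library lay below every WT library in both tables, and Gpx8 was the only member called lower in both. Gpx7 (chr4:108400390-108406961) was called lower in UIRI, at 5.60, 8.56 and 6.26 FPKM against 12.6, 16.9 and 12.3 FPKM (log2 fold change −0.94, SE 0.18, adjusted p = 0.0362, limma). In UUO its groups overlapped (log2 fold change −0.52, adjusted p = 0.297, limma). The macrophage marker sums given above were also lower in every KO library of both tables. Of the 9 fibroblast and myofibroblast markers, 4 were called lower in UUO and 2 in UIRI. The part of these or other cell types in the values of Gpx8 and Gpx7 was not tested.

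Gpx6, which also has a cysteine codon, had opposite signs in the tables (0.85 in UUO and −0.43 in UIRI, neither called), with WT replicate 2 at 14.3 FPKM after UIRI, above all other libraries. Gpx5 was listed at 0 in all 12 libraries.

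**Figure D3:**
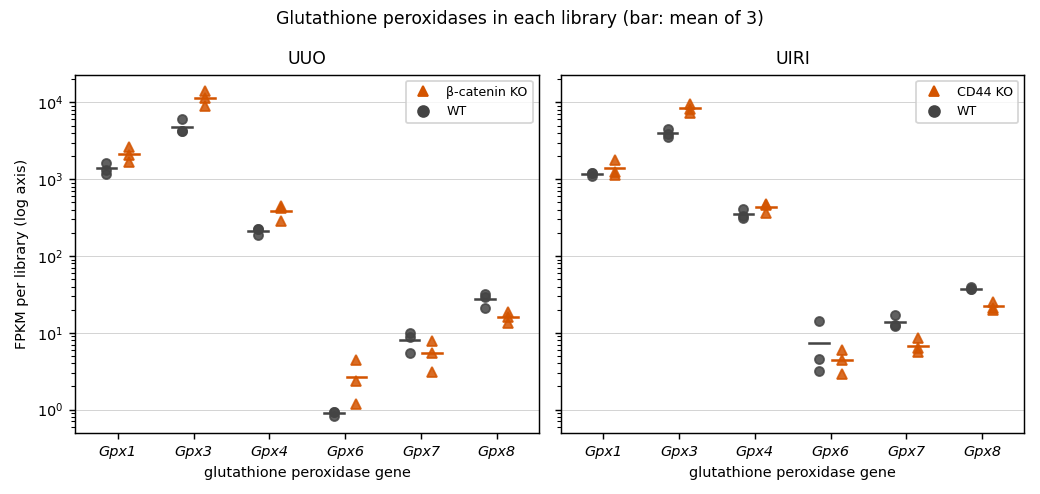
FPKM of the 6 glutathione peroxidases tested in each library (y axis, log scale), after UUO (left) and UIRI (right), with triangles for KO, circles for WT and bars for the mean of 3. Gpx3 lies above all others, with every KO library above every WT library in both panels, and Gpx8 has every KO library below every WT library.

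The peroxiredoxins had a median log2 fold change of 0.22 in UUO and 0.31 in UIRI, and 1 of 6 tested was called higher in either table. Prdx5 (chr19:6906697-6910106), found in mitochondria and peroxisomes, was at 297, 417 and 212 FPKM in β-catenin KO libraries and at 139, 145 and 155 FPKM in WT libraries (log2 fold change 1.02, SE 0.24, adjusted p = 0.0416, limma). Of its exonic bases, 19.1% also lie in exons of Trmt112 on the opposite strand. In UIRI its groups overlapped (log2 fold change 0.56, adjusted p = 0.183, limma).

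Prdx6 (chr1:161240112-161251219), which takes its electrons from glutathione, was called higher in UIRI, at 53.9, 48.7 and 58.4 FPKM against 38.1, 40.6 and 36.2 FPKM (log2 fold change 0.47, SE 0.10, adjusted p = 0.0435, limma). This was the smallest effect among the members called. In UUO it was not called (0.35, adjusted p = 0.221, limma). Prdx3, the mitochondrial enzyme, was higher in all 3 β-catenin KO libraries without a call (0.54, adjusted p = 0.0584, limma). Prdx1 and Prdx2 overlapped between groups in UUO, with log2 fold changes of 0.08, which turned sign under TPM, and 0.01, and were not called in UIRI (0.28 and −0.12). Prdx4, of the endoplasmic reticulum, averaged 10.9 FPKM in both groups after UUO and lay below every WT library in CD44 KO libraries without a call (−0.16, adjusted p = 0.276, limma). Prdx1 had the highest mean of the family in WT libraries after UUO, 212 to 269.9 FPKM, with 218 to 269 FPKM in KO libraries. Prdx6b was at most 0.0176 FPKM and was not tested.

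Txnrd1 (chr10:82833951-82897712), the cytosolic thioredoxin reductase, was called higher in UIRI, at 32.2, 40.6 and 47.8 FPKM in CD44 KO libraries and at 24.5, 20.4 and 20.6 FPKM in WT libraries (log2 fold change 0.84, SE 0.15, adjusted p = 0.0352, limma). The groups did not overlap. In UUO they overlapped, and the log2 fold change was 0.30 (SE 0.16, adjusted p = 0.255, limma). Srxn1 (chr2:152105516-152111376), sulfiredoxin, which repairs overoxidised peroxiredoxins, was at 50.4, 56.4 and 34.9 FPKM against 28.9, 29.6 and 29.5 FPKM in UUO, and at 46.1, 57.2 and 70.1 FPKM against 37.8, 34.7 and 33.8 FPKM in UIRI. All KO libraries lay above all WT libraries in both tables, with log2 fold changes of 0.64 and 0.67 that were not called (adjusted p = 0.0626 and 0.053, limma).

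Catalase was called higher in both comparisons. Cat (chr2:103453849-103485160) was at 310.1, 279 and 193 FPKM in β-catenin KO libraries and at 112, 101 and 111 FPKM in WT libraries, with means of 261 ± 60.7 and 108 ± 5.82 FPKM (SD, n = 3 libraries each). This 2.42-fold difference had an adjusted p of 0.0153 (log2 fold change 1.24, SE 0.19, limma). In UIRI it was at 203, 147 and 239 FPKM against 77.0, 76.4 and 84.5 FPKM, a 2.48-fold difference (log2 fold change 1.27, SE 0.18, adjusted p = 0.0267, limma). WT libraries varied little, and every KO library was above them, the lowest KO value being that of β-catenin KO replicate 3 and CD44 KO replicate 2.

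Among the superoxide dismutases, the extracellular enzyme was called in both tables. Sod3 (chr5:52363791-52371418) was at 135, 132 and 154 FPKM in CD44 KO libraries and at 57.7, 41.4 and 47.5 FPKM in WT libraries, and had the smallest p of all members in UIRI (log2 fold change 1.51, SE 0.14, adjusted p = 0.018, limma). In UUO it was at 164, 132 and 109.6 FPKM against 65.8, 77.5 and 91.5 FPKM (log2 fold change 0.77, SE 0.19, adjusted p = 0.0471, limma). The groups did not overlap in either. After UIRI, Sod3 carried 36.6% of the summed FPKM of the dismutases in WT and 56.1% in CD44 KO libraries. After UUO its share was 61% in WT and 58.9% in β-catenin KO libraries.

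Sod1 (chr16:90220754-90226329), the cytosolic copper-zinc enzyme, was called higher in UUO, at 80.5, 95.7 and 53.1 FPKM against 38.3, 35.8 and 34.6 FPKM (log2 fold change 1.02, SE 0.21, adjusted p = 0.0286, limma). In UIRI CD44 KO replicate 2, at 65.0 FPKM, lay within the WT range of 59.8 to 82.1 FPKM (log2 fold change 0.34, adjusted p = 0.319, limma). Sod2, the mitochondrial manganese enzyme, overlapped between groups in both tables (0.39 in UUO and 0.41 in UIRI, neither called).

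The regulators Nfe2l2 and Keap1 were not called. Nfe2l2 (chr2:75675513-75704641) was at 42.5, 40.2 and 50.1 FPKM in β-catenin KO libraries and at 45.0, 44.9 and 58.5 FPKM in WT libraries (log2 fold change −0.15, SE 0.15, adjusted p = 0.537, limma). In UIRI it was at 43.5, 45.9 and 47.7 FPKM against 47.5, 47.8 and 45.7 FPKM (log2 fold change −0.04, SE 0.08, adjusted p = 0.788, limma). The groups overlapped in both. Keap1 had log2 fold changes of 0.32 (SE 0.13) and 0.21 (SE 0.08), neither called. RNA levels of Nfe2l2 do not show how much Nrf2 protein is active.

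Nqo1 (chr8:107388225-107403206), a quinone reductase widely used as a readout of Nrf2, was called higher in both tables. It was at 57.1, 47.1 and 25.3 FPKM in β-catenin KO libraries and at 13.6, 8.94 and 8.91 FPKM in WT libraries, a 4.12-fold difference of the means (log2 fold change 1.89, SE 0.31, adjusted p = 0.0158, limma). In UIRI it was at 38.4, 39.5 and 81.5 FPKM against 18.7, 20.7 and 15.4 FPKM, a 2.91-fold difference (log2 fold change 1.41, SE 0.29, adjusted p = 0.0439, limma). The groups did not overlap in either table, and CD44 KO replicate 3 stood above the other KO libraries. Hmox1 (chr8:75093621-75100589), heme oxygenase, another gene known to respond to Nrf2, was not called. Its groups overlapped in UUO, at 40.6, 38.0 and 21.8 FPKM against 23.4, 30.0 and 44.6 FPKM (log2 fold change 0.03, SE 0.30, with the sign turning under TPM and without some libraries). In UIRI they did not, at 57.7, 88.6 and 109 FPKM against 48.4, 44.8 and 46.4 FPKM (log2 fold change 0.81, SE 0.22, adjusted p = 0.0726, limma).

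**Figure D4:**
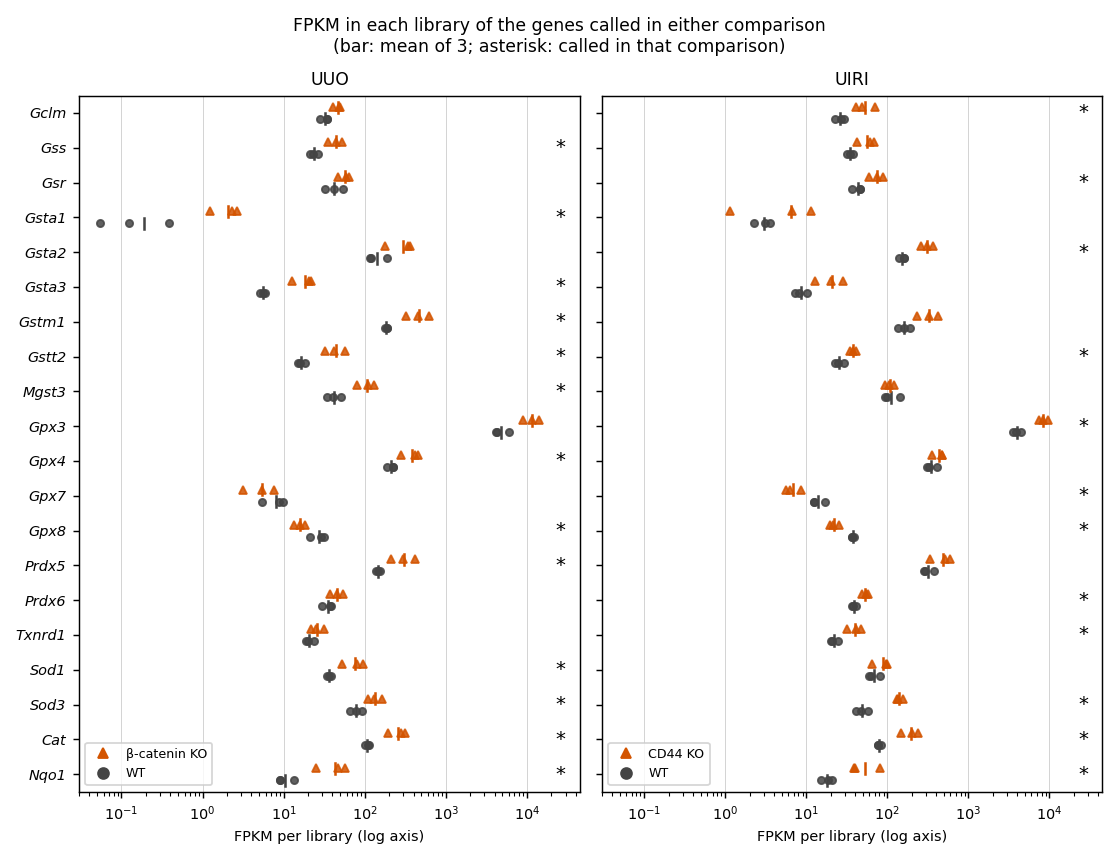
FPKM in each library (x axis, log scale) of the 20 antioxidant genes called in either comparison (y axis), after UUO (left) and UIRI (right). Triangles are KO and circles WT libraries, vertical bars mark the mean of 3, and an asterisk marks a call in that comparison. Cat, Nqo1, Gstt2 and Sod3 carry an asterisk with higher KO values in both panels, and Gpx8 with lower KO values in both.

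Across the 2 comparisons, which share no library, 20 of the 52 genes were called in at least 1, and 4 were called higher in both: Cat, Nqo1, Gstt2 and Sod3 (9.09% of the 44 tested in both, beside 1.52% of 15489 genes). Gpx8, called lower in both, was 2.27% of them, beside 0.807% of genes. The 4 are 33.3% of the members called higher in UUO and 40% of those called higher in UIRI. Under TPM, Nqo1 and Gstt2 lost the call in UIRI (adjusted p = 0.0548 and 0.0716, limma). Sod3 lost it in UUO (adjusted p = 0.0768, limma), and Cat alone stayed called in both. The call of Cat in UIRI was lost without the filter and with the replicate block. Of 44 members tested in both, 34 had positive log2 fold changes in both (77.3%, beside 35.4% of genes). Negative values in both were found for 5 (11.4%, beside 33.2%), which were Gstm2, Gpx7, Gpx8, Prdx4 and Nfe2l2, and 5 had opposite signs (11.4%, beside 31.4%), which were Gstm6, Gsto1, Mgst3, Gpx6 and Prdx2. All KO libraries lay above all WT libraries in both tables in 12 members (27.3%, beside 9.3% of genes), which were Cat, Gclm, Gss, Gsta3, Gstm1, Gstm5, Gstt2, Mgst1, Gpx3, Srxn1, Sod3 and Nqo1. Genotype and injury change together between the tables, so a shared value belongs to neither alone.

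A direct test of the difference between the 2 knockout effects called 0 of the 44 members (limma, lowest adjusted p = 0.146), beside 1 of 15489 genes (0.00646%). At an unadjusted p under 0.05 there were 5 (Mgst3, Gstt2, Gsta4, Sod3 and Txnrd1), which is 11.4% of the members and no more than the 13.8% of all genes. A member called in only 1 comparison is therefore not shown to differ between the tables.

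The promoters of the members were searched for an antioxidant response element core, TGACNNNGC, and for the motif ATCAAAG of TCF/LEF, the factors through which β-catenin acts, on both strands. The windows were RefSeq promoters on GRCm38.p6, from 250 bases before to 50 bases after a RefSeq start, and 44 of the 52 genes had at least 1. A symbol could have several starts (32851 windows in all), and a match in any of its windows counted. A window can therefore lie inside the gene's listed span, as for the matches of Txnrd1 and Mgst1. The core was present in 10 of the 44 (22.7%), beside 14.0% of 27025 gene symbols with a window of this length. These were Gclm, Gsta3, Gstm5, Gstm7, Mgst1, Nfe2l2, Prdx1, Sod1, Srxn1 and Txnrd1. ATCAAAG was present in 0 of the 44, beside 4.29% of all symbols. A match is only a description of these letters, and the windows leave out elements farther from the start.

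The matches in the 4 members that were called in a comparison are shown, each with 10 bases on either side and the match in capitals, 5′ to 3′ on the strand of the gene. In Gclm, Sod1 and Txnrd1 the match is on the opposite strand and reads as its reverse complement.
Gsta3: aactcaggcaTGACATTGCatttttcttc
Gclm: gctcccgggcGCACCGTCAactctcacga
Sod1: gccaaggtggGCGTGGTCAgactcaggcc
Txnrd1: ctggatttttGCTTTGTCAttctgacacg

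The match lies 121 bases before the RefSeq start of Gsta3 (chr1:21240464-21240472), 134 before that of Gclm (chr3:122245423-122245431), 56 before that of Sod1 (chr16:90220706-90220714) and 92 before that of Txnrd1 (chr10:82859114-82859122), and all 4 genes are on the plus strand. Gsta3 and Sod1 were the ones called higher in UUO, and Gclm and Txnrd1 in UIRI. Nqo1, called higher in both tables, had no match of the core in its window, while Nfe2l2 and Prdx1 had a match and were called in neither comparison. Of the 16 called members with a window, 4 held the core.

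Genes around the glutathione system were taken from lists written from general knowledge, and their counts stand beside higher calls in 6.21% of all genes in UUO and 4.02% in UIRI. In the supply and breakdown of glutathione precursors, 4 of 12 tested were called higher and 1 lower after UUO, with a list median of 0.53. Cth and Cbs, the enzymes that turn homocysteine towards cysteine, were at 39.3, 48.9 and 39.1 FPKM against 15.7, 14.3 and 14.5 FPKM for Cth (log2 fold change 1.45, adjusted p = 0.00613, limma) and at 21.9, 29.4 and 22.2 FPKM against 9.33, 7.03 and 8.61 FPKM for Cbs (1.45, adjusted p = 0.00814, limma). Oplah, 5-oxoprolinase, which returns glutamate from broken-down glutathione, was called higher in UUO (1.19, adjusted p = 0.0176, limma) and in UIRI (1.01, adjusted p = 0.0267, limma). Slc1a5, a neutral amino acid carrier, was called lower in UUO (−0.61, adjusted p = 0.0282, limma). In UIRI 3 of 12 were called higher, the others being Anpep (0.85), a peptidase, and Slc3a2 (0.54), the heavy chain of the cystine carrier, each with an adjusted p of 0.0267 (limma).

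The list of further glutathione transferases outside the classes above also held genes that are not transferases, among them Alox5ap. Of its 10 genes, 2 were called higher and 1 lower after UUO. Gstz1, which acts in tyrosine breakdown, rose by 1.03 on the log2 scale (adjusted p = 0.0116, limma) and Gstk1, of mitochondria and peroxisomes, 0.76 (adjusted p = 0.0216, limma). Alox5ap, of leukotriene synthesis in leukocytes, was called lower in UUO (−0.78, adjusted p = 0.0284, limma) and was the 1 called in UIRI, also lower (−0.85, adjusted p = 0.0309, limma). The list median was −0.17 in UUO and 0.09 in UIRI.

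Among thioredoxin and glutaredoxin partners, 3 of 16 were called higher after UUO, which were Msra, Sesn2 and Txnrd3. Msra, a methionine sulfoxide reductase, was called higher in both tables (0.99, adjusted p = 0.0198 in UUO, and 0.92, adjusted p = 0.0288 in UIRI, limma). Txnip, which binds and inhibits thioredoxin, was called lower in UIRI, at 139, 143 and 157 FPKM against 215, 284 and 263 FPKM (log2 fold change −0.78, adjusted p = 0.0308, limma). Those were the 2 of 16 called there.

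The list of Nrf2 partners and further Nrf2 targets had 2 of 18 called higher in UUO and 5 of 18 in UIRI, with medians of 0.45 and 0.47. In UUO these were Cbr1, a carbonyl reductase, at 109, 60.4 and 45.5 FPKM against 18.2, 15.2 and 19.4 FPKM (log2 fold change 1.87, adjusted p = 0.0154, limma), and Mafk, a partner of Nrf2 (0.49, adjusted p = 0.028, limma). In UIRI they were Osgin1 (1.23), Slc48a1 (0.52), Maff (0.53), Sqstm1 (0.61) and Fth1 (0.83), with adjusted p from 0.0377 to 0.0496 (limma). Fth1, the ferritin heavy chain, was at 3847, 3863 and 4671 FPKM in CD44 KO libraries and at 2433, 2334 and 2196 FPKM in WT libraries.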

How the data were processed

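RNA was taken from 12 mouse kidney samples with Trizol and made into libraries with the NEBNext Ultra kit. Per the labels' processing notes, the authors used HISAT2 (2.0.5), GRCm38/mm10, featureCounts (1.5.0-p3) and DESeq2 (1.20.0). The deposited values were FPKM per gene in 2 tables, 1 per knockout with its controls, which the authors computed from counts and gene length. Scaling the FPKM by the median of ratios left the UUO result as it was, with 12 members called higher, 1 lower and a median of 0.58. TPM instead divides by the total of a library, which a few very abundant genes can shift. Multiplying FPKM by gene length gave whole reads for at least 99.97% of values per library (tolerance 0.01), and 15940405 to 20737443 reads per library.

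Testing used limma (version 3.58.1 in R 4.3.3, with a mean-variance trend) on log2(FPKM + 1), for genes that averaged 0.5 FPKM or more across a table's 6 libraries. The difference between the knockout effects was tested over 12 libraries. The fits were tested on simulated data in which every gene had the same dispersion, which does not show how far the calls hold in these libraries. Sequences were read with Biopython (1.88) from GENCODE and RefSeq, and figures drawn with Matplotlib (3.10.9). Alternatives were other pseudocounts, filters and scalings, no trend, voom on recovered reads, a replicate block, and each library left out in turn.

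The text names the targeted genes, every member called, the most abundant member of each family, the members listed by symbol, and up to 4 genes with the smallest p of each pathway list; other members are given so that all are accounted for. Members and lists were chosen with earlier results of these data known. Some genes of the pathway lists are not reported here.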

Additional observations from a re-analysis of the deposited data

How the results depend on the processing

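The counts of calls depended on the fit, and the medians less so. In UUO, 12 members were called higher, 4 without a filter and 20 with voom, and 1 to 23 with a library left out. The 1 call lower became 0 without a filter, without the trend and with the replicate block, and 0 to 1 with a library left out. In UIRI, 10 members were called higher, 1 without a filter, 4 under TPM, 5 without the trend and 16 with voom, and 0 to 16 with a library left out. The 2 calls lower became 0 without a filter, and 0 to 2 with a library left out. The share of all genes called ranged from 1.41% to 15.1% in UUO and from 0% to 13.5% in UIRI. The test of the difference between knockouts called 0 members in each alternative run, with the lowest adjusted p of a member between 0.0747 and 0.328 (limma).

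KO and WT samples with the same replicate number were correlated after each gene's group mean was taken off. The values were 0.0802, 0.198 and 0.0434 in UUO and −0.143, −0.0251 and −0.0291 in UIRI. With 3 samples per group they cannot show whether samples were paired. With the replicate block, 14 members were called higher in UUO and 0 in UIRI, and 0 were called lower in both tables. In UUO, β-catenin KO replicates 1 and 2 correlated best with the WT sample of their own number, and replicate 3 did not. In UIRI no CD44 KO sample did.

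Among uncalled members, signs turned. In UUO, Gsto1 was at −0.19 under TPM, −0.08 without β-catenin KO replicate 1, −0.00584 without β-catenin KO replicate 3 and −0.14 without WT replicate 3, the highest with a library left out being 0.21. Hmox1 was at −0.18 under TPM, −0.13 and −0.08 without β-catenin KO replicates 1 and 2, and −0.17 and −0.00165 without WT replicates 1 and 2, the highest being 0.31. Prdx1 was at −0.13 under TPM. In UIRI, Gsto1 was at 0.03 without CD44 KO replicate 1 and 0.0725 without WT replicate 2, the lowest being −0.22. Gstt1 was at −0.12 under TPM, −0.00501 with voom, −0.13 without CD44 KO replicate 1 and −0.07 without WT replicate 1, the highest being 0.10. Mgst3 was at 0.05 without CD44 KO replicate 2 and 0.16 without WT replicate 2, the lowest being −0.15. The cause was not tested. Over all alternatives, the named members kept direction and side of the threshold 352 times in UUO and 321 in UIRI, lost a call 58 and 96 times and gained one 15 and 10 times.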

Other observations

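Among enzymes that produce superoxide or hydrogen peroxide, genes were called in both directions in each table. In UUO, the peroxisomal oxidases Dao (log2 fold change 1.10, adjusted p = 0.0164) and Hao2 (0.88, adjusted p = 0.0367) were called higher with limma. Cybb and Ncf4, of the phagocyte NADPH oxidase, were called lower there. Cybb was at 6.44, 7.96 and 9.09 FPKM against 19.1, 20.2 and 30.4 FPKM (−1.44, adjusted p = 0.0125, limma), and the value for Ncf4 was −1.27 on the log2 scale (adjusted p = 0.0401, limma). In UIRI, Dao (1.10) and Nox4 (0.90) were called higher, and Ncf1 (−1.09) and Ncf4 (−0.71) lower. The macrophage marker sums were lower in the same KO libraries, and their part in this was not tested.

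Of 12 genes tested that supply NADPH, 3 were called higher in UUO (Idh2 0.63, Mthfd1 0.71 and Aldh1l1 0.78) and 4 in UIRI (Mthfd1 0.81, Idh1 0.89, Tkt 0.40 and Me1 0.99), with list medians of 0.43 and 0.42. Of 12 genes for selenoprotein synthesis and supply, 2 were called higher in UUO (Sephs2 0.95 and Lrp2 0.91) and 3 in UIRI (Sephs2 0.81, Lrp2 1.26 and Eefsec 0.51), with list medians of 0.12 and 0.21. Sephs2 makes the selenium donor for selenocysteine, and Lrp2 is also a proximal tubule marker.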
